A study of Mus musculus with 9 samples.

Results

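Transcripts for making fatty acids, lengthening and desaturating them, and joining them to glycerol were measured in newborn mouse epidermis labelled Alox12b-KO or wildtype. Alox12b is the gene of 12R-lipoxygenase, an enzyme that oxidises the linoleate of epidermal acylceramides. The 35 genes were listed by name for their known roles in this pathway. A gene counted as measured if the annotation of the Affymetrix mouse array named it alone for at least 1 probe set, and its brightest probe set over all 9 arrays stood for it. This gave 34 of the 35 genes, out of 18193 genes measured in all. Acsl1, an acyl-CoA synthetase gene, had no such probe set in the table used here. Trunk epidermis came from newborn offspring of heterozygous Alox12b knockout parents, with 4 arrays labelled Alox12b-KO and 5 labelled wildtype, each from a sample called a biological replicate. The wildtype samples are described as strain 129S6, and no strain is given for the knockout samples. The labels do not state whether the groups were littermates or which part of Alox12b was removed. The Alox12b probe set read 11.13 ± 0.33 (SD, n = 4) on the arrays labelled Alox12b-KO and 10.91 ± 0.29 (SD, n = 5) on the wildtype arrays, and the groups overlapped. The target transcript was thus not lower on the arrays labelled Alox12b-KO, and whether this probe set lies in the removed part is not known, so it does not check the labels. Below, knockout stands for the arrays labelled Alox12b-KO, and every direction rests on those labels. All values are deposited log2 expression levels, so a difference of 1 is a 2-fold change, and every difference is Alox12b-KO minus wildtype.

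Fatty acid synthesis begins with citrate that leaves the mitochondrion and is split to acetyl-CoA in the cytosol. Acetyl-CoA carboxylase turns this into malonyl-CoA, and fatty acid synthase builds palmitate from both with NADPH. Elongases with a reductase, dehydratase and second reductase lengthen the chain in the endoplasmic reticulum, desaturases add double bonds, and acyltransferases, lipins and DGAT enzymes place the chains on glycerol. In epidermis these lipids feed the lamellar granules, the ceramides with very long chains and the triglyceride that donates linoleate to acylceramide.

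Some facts of the whole series bear on what follows. Array medians lay between 3.14 and 3.31 and precision is limited by how many arrays there are. The epidermal markers Krt1, Krt10 and Lor read between 13.99 and 14.46 on the 9 arrays, at the top of the scale. The other keratinocyte markers listed were less even. Krt5 and Krt14 read 7.47 and 7.36 on wildtype array 5, against 8.41 to 9.76 and 8.58 to 9.65 on the other arrays. Ivl differed by 0.50, with a limma adjusted p of 0.135. The female pattern of high Xist and low Eif2s3y was seen on 4 of 4 Alox12b-KO arrays and on 1 of 5 wildtype arrays, so genotype and sex can hardly be told apart. That wildtype array was array 4, where Xist read 10.95, against 3.23 to 4.32 on the other wildtype arrays. The knockout arrays read 9.99 to 10.20. Differences with Xist as a covariate thus lean largely on knockout against that 1 wildtype array. The mean of 6 adipocyte markers ran from 4.09 to 4.98 on the knockout arrays and from 3.96 to 8.44 on the wildtype arrays, where array 3 was highest and array 4 next at 7.01. Fibroblast and smooth muscle markers were highest on knockout array 4, at means of 9.11 and 6.28, against 5.26 to 7.62 and 3.50 to 4.00 on the other arrays. In whole epidermis, fewer cells of a type and less RNA per cell cannot be told apart.

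At an adjusted p of 0.05 limma called none of the 34 genes, where it called 1.24% of all genes (226 genes), 0.511% higher and 0.731% lower in knockout. At an unadjusted p under 0.05 there were 10 of 34, against 17.8% of all genes, 4 of them higher (all genes 7.08%) and 6 lower (all genes 10.7%) in knockout. The higher ones were Acacb, Me1, Thrsp and Agpat1, and the lower ones were Hacd2, Slc25a1, Dgat1, Agpat2, Acsl5 and Elovl5. The pathway did not move one way as a whole: 17 differences were positive and 17 negative, with a median of -0.01, beside 0.02 over all genes. The median size of a difference was 0.24, and 0.18 over all genes. The 4 genes whose groups did not overlap, Slc25a1, Hacd2, Acsl5 and Dgat1, were all lower in knockout, where 5.14% of all genes did the same. A refit of the 7184 genes with a mean level of 5 or more held 26 of the 34 genes. At an unadjusted p under 0.05 it had 7 of the 26, against 24.9% of all genes at that level. Groups did not overlap in either direction for 4 of the 26, against 13.4%, and the median difference over the 7184 was -0.12.

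**Figure D1:**
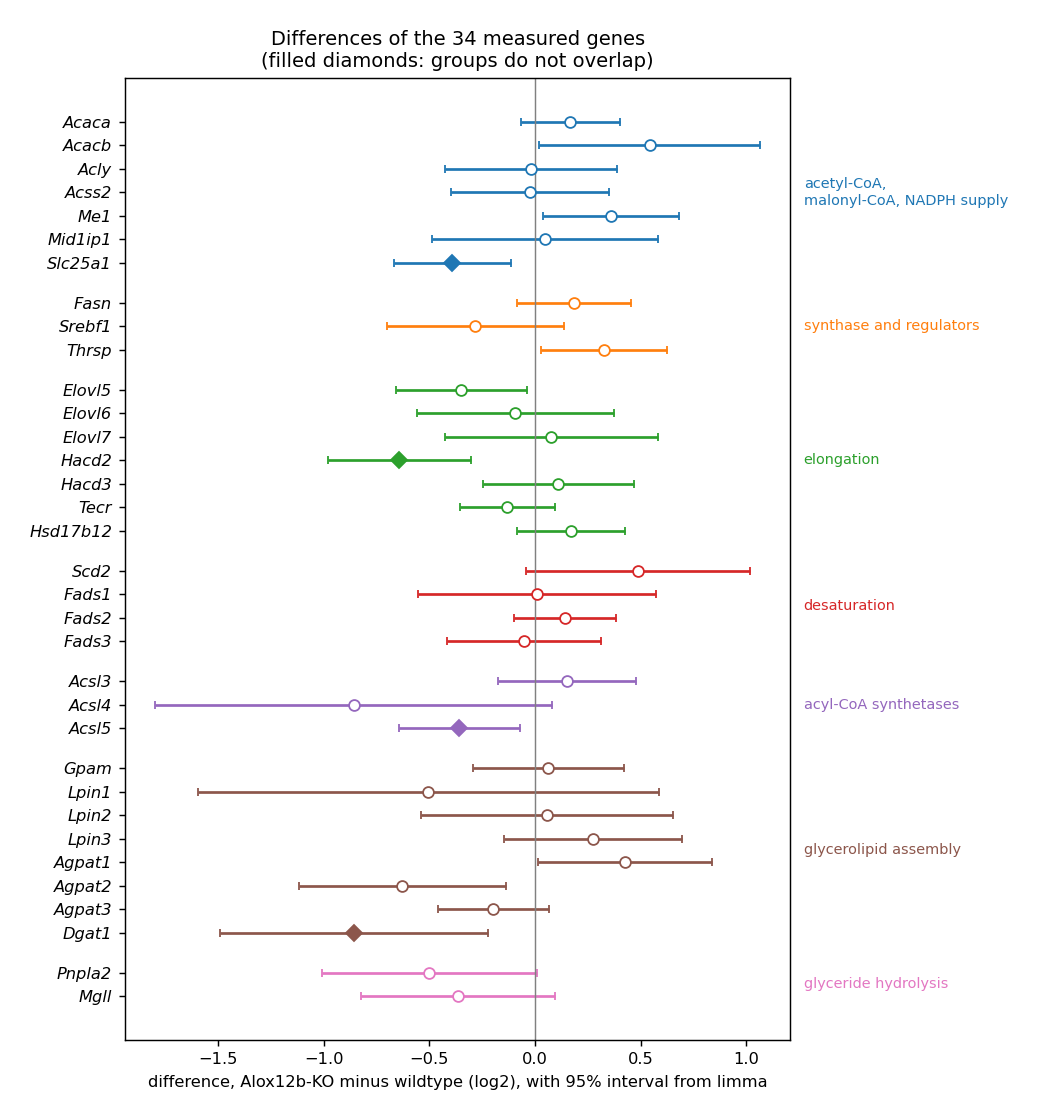
Difference between Alox12b-KO and wildtype on the log2 scale for the 34 measured genes, ordered by role, with the 95% interval from limma. Filled diamonds mark Slc25a1, Hacd2, Acsl5 and Dgat1, whose groups did not overlap, and all of them lie to the left of 0. Intervals are unadjusted, and the widest are those of Acsl4 and Lpin1.

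Sequences upstream of the start site are shown for the genes whose groups did not overlap and for Fasn, the synthase itself. RefSeq promoter windows of GRCm38.p6 were matched for 32 of the 35 genes, and Dgat1, Scd2 and Fads1 were not among them. The 250 bases before the start are printed 5′ to 3′ on the strand of the gene. Capitals mark the letters of 4 motifs on either strand: the sterol regulatory element of SREBP (TCACNCCAC), the E-box CACGTG, the CCAAT box and the GC box GGGCGG.
Slc25a1, chr16:17928220-17928469, minus strand: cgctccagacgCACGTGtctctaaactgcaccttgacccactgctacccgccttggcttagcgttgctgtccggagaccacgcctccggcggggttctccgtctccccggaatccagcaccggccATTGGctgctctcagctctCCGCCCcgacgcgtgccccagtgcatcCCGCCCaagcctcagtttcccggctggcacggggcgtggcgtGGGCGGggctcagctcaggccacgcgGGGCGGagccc
Hacd2, chr16:35022171-35022420, plus strand: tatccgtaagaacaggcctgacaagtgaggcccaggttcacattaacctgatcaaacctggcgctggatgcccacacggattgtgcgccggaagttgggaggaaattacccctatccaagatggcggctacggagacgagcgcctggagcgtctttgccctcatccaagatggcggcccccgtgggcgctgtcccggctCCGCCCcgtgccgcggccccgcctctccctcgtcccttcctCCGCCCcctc
Acsl5, chr19:55253119-55253368, plus strand: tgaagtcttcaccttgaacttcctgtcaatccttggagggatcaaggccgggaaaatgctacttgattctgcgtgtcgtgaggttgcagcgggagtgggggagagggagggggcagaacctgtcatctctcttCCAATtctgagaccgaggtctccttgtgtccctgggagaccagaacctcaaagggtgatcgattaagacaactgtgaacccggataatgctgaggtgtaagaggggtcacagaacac
Fasn, chr11:120824548-120824797, minus strand: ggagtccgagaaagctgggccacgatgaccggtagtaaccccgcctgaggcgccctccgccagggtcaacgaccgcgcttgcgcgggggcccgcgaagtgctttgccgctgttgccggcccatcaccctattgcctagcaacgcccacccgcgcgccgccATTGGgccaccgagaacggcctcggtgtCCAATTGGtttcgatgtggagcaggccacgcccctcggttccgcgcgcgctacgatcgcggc

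Slc25a1 held the E-box, a CCAAT box and 4 GC boxes in the printed stretch. Hacd2 held 2 GC boxes, Acsl5 a CCAAT box and Fasn 3 CCAAT boxes, 2 of which overlap on opposite strands. In the whole windows of 300 bases, which run to 50 bases past the start, the GC box was found in 71.9% of the 32 matched genes, against 57.3% of the 14452 genes on the arrays that have a window. The CCAAT box was found in 59.4% against 42.0%, the E-box in 18.8% against 10.2% and the sterol element in 3.13% (Acsl1) against 1.46%. These are matches of letters and not shown to be binding sites.

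Among the genes that supply acetyl-CoA, malonyl-CoA and NADPH, 2 of 7 had an unadjusted p under 0.05 upward and 1 downward. Slc25a1, the mitochondrial citrate carrier, read 6.16, 5.94, 6.01 and 5.59 on knockout arrays 1 to 4 and 6.30, 6.28, 6.42, 6.30 and 6.30 on wildtype arrays 1 to 5. Every knockout value lay below every wildtype value, and knockout array 4 was lowest. The difference was -0.39 ± 0.13 (SE), with a limma adjusted p of 0.161, and the 95% interval ran from -0.67 to -0.11. Without knockout array 4 it was -0.28.

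Acacb, the acetyl-CoA carboxylase tied to the mitochondrial surface, read 5.09, 5.20, 5.60 and 5.84 on the knockout arrays and 4.33, 4.99, 4.58, 5.47 and 5.09 on the wildtype arrays. The groups overlapped, since wildtype array 4 lay above knockout arrays 1 and 2. Its difference was 0.54 ± 0.24 (SE), with a limma adjusted p of 0.267, and its dimmer probe set differed by -0.14. With the Xist level as a covariate, which leans on wildtype array 4, the difference was 0.12. Me1, malic enzyme, a source of NADPH, read 9.61 ± 0.26 (SD, n = 4) in knockout and 9.26 ± 0.17 (SD, n = 5) in wildtype, and with the Xist covariate its difference of 0.36 was 0.10. For the enzymes on the main line the differences were small. Acly, which splits citrate, read 10.50 against 10.52, and Acaca, the cytosolic carboxylase, read 6.84 against 6.67. The interval of Acly ran from -0.43 to 0.39 and that of Acaca from -0.07 to 0.40. The brightest probe set of Acly is of a less specific kind, marked _x_at. The next in brightness gave -0.20 at a mean level of 10.37, and the others ran from -0.27 to 0.16. Mid1ip1, a protein that helps carboxylase form filaments, differed by 0.05, with knockout values from 7.16 to 8.23. Acss2, which makes acetyl-CoA from acetate, differed by -0.02 at a mean level of 3.95.

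Fasn, fatty acid synthase, read 8.65 ± 0.10 (SD, n = 4) in knockout and 8.47 ± 0.18 (SD, n = 5) in wildtype. Its difference was 0.18, with an interval from -0.09 to 0.45 and a limma adjusted p of 0.454, and with the Xist covariate it was -0.06. Srebf1, the gene of the SREBP-1 factors that drive lipid synthesis, read 7.30, 7.12, 7.10 and 6.61 on the knockout arrays and 7.09, 7.19, 7.27, 7.16 and 7.87 on the wildtype arrays. Apart from knockout array 4 and wildtype array 5 the arrays lay between 7.09 and 7.30.

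Thrsp, the Spot 14 gene that accompanies lipid synthesis in adipocytes and liver, gave opposite directions with different probe sets. The brightest read 4.29, 4.44, 4.43 and 4.61 on the knockout arrays and 3.81, 4.01, 4.36, 4.28 and 4.11 on the wildtype arrays, a difference of 0.33 (limma adjusted p = 0.249). The other probe sets differed by -0.85 and -1.79. The dimmest read 2.33 to 2.59 on the knockout arrays and 2.20, 2.88, 5.77, 5.84 and 4.46 on the wildtype arrays, so that wildtype arrays 3, 4 and 5 stood far above all others. Those were also the 3 arrays with the highest adipocyte markers, at means of 8.44, 7.01 and 6.20. The part of adipocyte RNA in this gene was not tested.

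The smallest adjusted p of the 34 genes was in chain elongation. Hacd2, a 3-hydroxyacyl-CoA dehydratase of the elongation cycle, read 9.19, 9.11, 8.75 and 8.68 on the knockout arrays. On the wildtype arrays it read 9.57, 9.45, 9.70, 9.31 and 9.84. All knockout values were below all wildtype values, and the level was 8.93 ± 0.26 (SD, n = 4) against 9.57 ± 0.21 (SD, n = 5). The difference of -0.64 ± 0.15 (SE) is a knockout level of 0.641 times the wildtype level, with an interval from -0.98 to -0.30 and a limma adjusted p of 0.0759. A dimmer probe set separated the groups too, at 6.13, 5.84, 5.42 and 5.17 in knockout and 6.28, 6.40, 6.48, 6.22 and 6.40 in wildtype, a difference of -0.72. Over the settings tried the adjusted p of Hacd2 ran from 0.0323 to 0.769. It passed with quantile normalization and with array weights, and its highest value came with the Xist covariate, which left a difference of -0.41.

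Hacd3, the other dehydratase gene listed, differed by 0.11, with an interval from -0.25 to 0.47. Elovl5, an elongase of polyunsaturated chains, read 8.28 ± 0.24 (SD, n = 4) against 8.63 ± 0.17 (SD, n = 5), a difference of -0.35 (limma adjusted p = 0.237), and its dimmer probe set gave -0.48. Knockout array 4 was lowest, at 7.94, and without it the difference was -0.23. Elovl6, which lengthens palmitate, and Elovl7, an elongase of saturated long chains, differed by -0.09 and 0.08. Both were higher on knockout arrays 1 and 2 than on arrays 3 and 4: Elovl6 read 8.79, 8.91, 7.97 and 8.08, and Elovl7 10.86, 10.92, 9.86 and 10.26. The reductase genes Hsd17b12 and Tecr, which serve all chain lengths, differed by 0.17 (interval -0.08 to 0.42) and -0.13 (interval -0.36 to 0.10).

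With its brightest probe set, none of the 4 desaturase genes had an unadjusted p under 0.05. In a limma fit of all probe sets, the dimmer probe sets of Scd2 had unadjusted p values of 0.0165 and 0.0116. Their limma adjusted p values were 0.207 and 0.184. The dimmer probe set of Fads1 had an unadjusted p of 0.00797 in that fit. Scd2, a stearoyl-CoA desaturase of newborn mouse skin, read 11.77, 11.45, 10.91 and 10.37 on the knockout arrays and 10.46, 10.67, 10.70, 10.72 and 10.62 on the wildtype arrays. Knockout arrays 1, 2 and 3 lay above all wildtype arrays and knockout array 4 lay below all of them. The difference was 0.49 ± 0.24 (SE), with a limma adjusted p of 0.316. It was 0.74 without knockout array 4, with a limma adjusted p of 0.127, and 0.27 without knockout array 1. Its dimmer probe sets gave 0.60 and 0.75, and with array weights, of which knockout arrays 3 and 4 had the lowest, the difference was 0.81 and passed, with a limma adjusted p of 0.00856.

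Fads1 and Fads2, the delta-5 and delta-6 desaturases that make arachidonate from linoleate, and Fads3 had mean levels of 3.59, 3.21 and 3.34, close to the array medians. Their differences were 0.01, 0.14 and -0.05. The dimmer probe set of Fads1 differed by 0.41 with no overlap between the groups and a limma adjusted p of 0.157 in a fit of all probe sets. That of Fads3 next in brightness differed by 0.37, and the other probe sets of Fads2 by -0.01 and 0.10. No detection call was at hand for them, so they may not lie above background and a change could have been missed. The same holds for the 8 of 34 genes with a mean level under 5, which are these, Acss2, Thrsp, Lpin1, Acsl3 and Agpat2. Levels of different probe sets cannot be ranked against each other.

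Acyl-CoA synthetases activate fatty acids for every later use. Acsl5, an enzyme of the endoplasmic reticulum and mitochondria, read 9.39, 9.36, 9.13 and 8.86 on the knockout arrays and 9.57, 9.50, 9.49, 9.48 and 9.68 on the wildtype arrays. The groups did not overlap, and the gap between knockout array 1 and wildtype array 4 was small. The difference was -0.36 ± 0.13 (SE), with a limma adjusted p of 0.201. Acsl4, which prefers arachidonate and is X-linked, had a difference of -0.86 ± 0.43 (SE), by size level with Dgat1 as the largest of the 34, with a limma adjusted p of 0.321. It read 7.05, 6.53, 4.98 and 5.31 in knockout and 6.59, 6.49, 6.58, 6.65 and 7.83 in wildtype, so that it rested on low values on knockout arrays 3 and 4 and a high value on wildtype array 5. Without knockout array 3 the difference was -0.53, and the other probe sets gave 0.09 and -0.28. Acsl3, a synthetase linked to lipid droplets, differed by 0.15 at a mean level of 3.16.

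**Figure D2:**
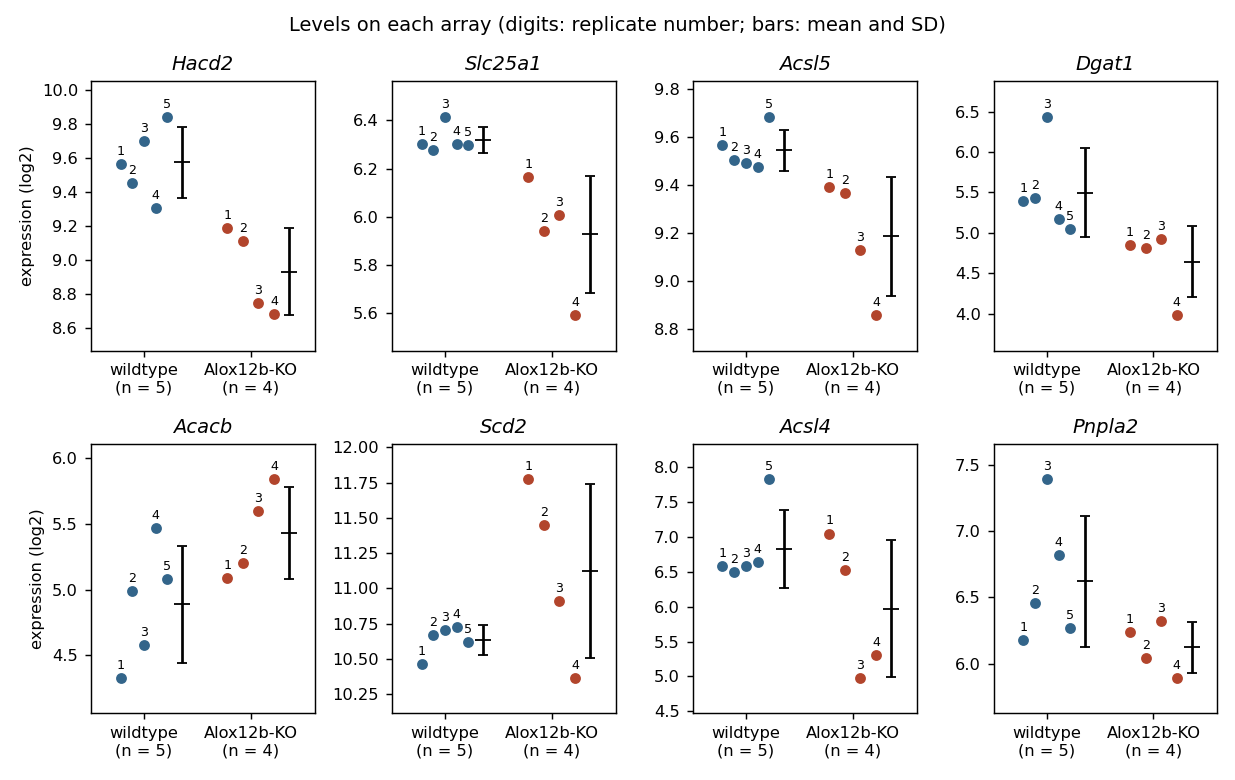
Log2 level of 8 genes on each array, with wildtype in blue and Alox12b-KO in red, digits giving the replicate number and bars the mean and SD of each group. Hacd2, Slc25a1, Acsl5 and Dgat1 show no overlap between the groups. Acacb, Scd2, Acsl4 and Pnpla2 overlap, and Scd2 runs from 10.37 to 11.77 within knockout.

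Of the 8 genes of glycerolipid assembly, 5 acyltransferases and 3 lipins, 1 was higher and 2 were lower at an unadjusted p under 0.05. Dgat1, which adds the third acyl chain to make triglyceride, read 4.85, 4.81, 4.92 and 3.98 on the knockout arrays. On the wildtype arrays it read 5.40, 5.43, 6.44, 5.17 and 5.05. The groups did not overlap, but knockout array 4 and wildtype array 3 stood apart from the rest of their groups. The difference was -0.86 ± 0.29 (SE), a knockout level of 0.552 times the wildtype level, with a limma adjusted p of 0.177. It was -0.62 without wildtype array 3, which had the highest adipocyte markers, and -0.64 without knockout array 4. The probe set behind these values is of the less specific kind, marked _s_at, and the other one gave -0.04 at a mean level of 3.59.

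Agpat2, a lysophosphatidate acyltransferase of fat tissue, read 4.56, 4.46, 3.50 and 3.63 in knockout and 4.50 to 4.86 in wildtype, a difference of -0.63 (limma adjusted p = 0.192). Only knockout array 1 reached the wildtype range, and without knockout array 3 the difference was -0.45. Agpat1, another acyltransferase of this step, differed by 0.43, by 0.26 without knockout array 4, where it read 5.97, and its dimmer probe set gave -0.14. Agpat3 differed by -0.20, and its other probe sets ran from -0.71 to 0.25. Gpam, the mitochondrial enzyme that starts glycerolipid synthesis, read 9.67 ± 0.27 (SD, n = 4) against 9.61 ± 0.23 (SD, n = 5), with an interval of the difference from -0.29 to 0.42.

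The lipins remove the phosphate from phosphatidate. Lpin1, the main lipin of fat and muscle, read 4.23, 4.39, 4.21 and 4.34 in knockout and 4.09, 4.24, 6.88, 4.67 and 4.09 in wildtype. Wildtype array 3 stood far above all others. The difference was -0.50 with that array and 0.02 without it, and the dimmer probe set gave -1.16, also with wildtype array 3 highest. Lpin2 differed by 0.06, with knockout array 3 low at 4.85, and Lpin3 by 0.27, which was 0.12 without knockout array 3.

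Both genes of glyceride hydrolysis had lower means in knockout, and their groups overlapped. Pnpla2, adipose triglyceride lipase, read 6.24, 6.04, 6.32 and 5.89 on the knockout arrays and 6.18, 6.46, 7.39, 6.82 and 6.27 on the wildtype arrays. Wildtype arrays 3 and 4 were highest, as they were for the adipocyte markers, whose part was not tested. The difference of -0.50 ± 0.23 (SE) had a limma adjusted p of 0.290, and without wildtype arrays 3 and 4 it was -0.18. Mgll, monoacylglycerol lipase, differed by -0.36, and by -0.08 without those arrays. Without probe sets marked _a_at, _s_at or _x_at, dimmer ones stood for both genes. These gave 0.19 for Pnpla2 at a mean level of 2.88, where the brightest had 6.40. For Mgll they gave 0.34 at 3.76, where the brightest had 5.32. The other probe sets of Mgll gave -0.58 and -0.31.

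**Figure D3:**
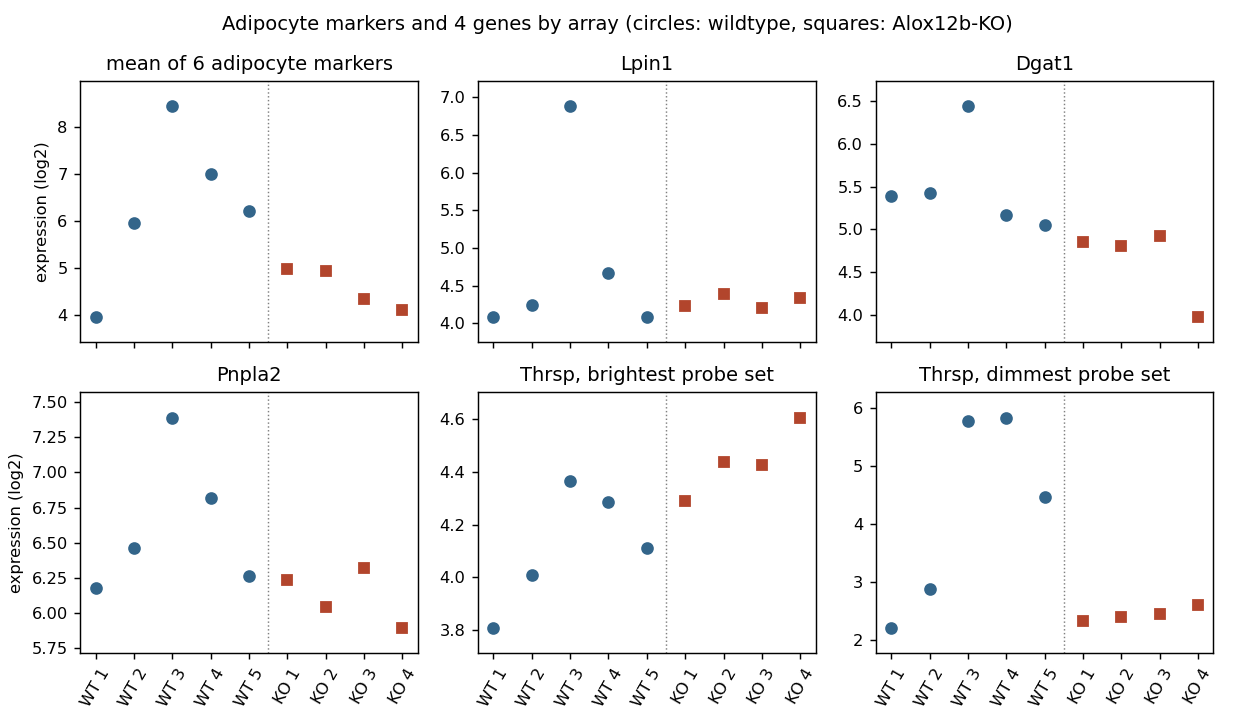
Log2 level on each array for the mean of 6 adipocyte markers (Adipoq, Fabp4, Cidec, Retn, Pparg and Car3) and for Lpin1, Dgat1, Pnpla2 and 2 probe sets of Thrsp. Wildtype array 3 is highest for the markers, Lpin1, Dgat1 and Pnpla2, and wildtype array 1 has markers at 3.96, just under the knockout range.

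Among markers of other cell types, all 6 measured adipocyte markers had negative differences, with a median of -1.64, and none passed in limma. Of 6 hair follicle markers 5 had negative differences, with a median of -0.55, beside 8464 negative differences among all 18193 genes. Adipoq, the adiponectin gene, read 4.27, 3.79, 3.01 and 2.42 in knockout and 2.83, 6.36, 9.46, 7.53 and 5.98 in wildtype. The summed level of the 6 ran from 24.6 to 29.9 in knockout and from 23.8 to 50.6 in wildtype. Without wildtype arrays 3 and 4 the differences of Slc25a1, Hacd2, Acsl5 and Dgat1 were -0.37, -0.69, -0.40 and -0.65. That choice leaves no wildtype array with the female pattern. It also keeps wildtype arrays 2 and 5, whose adipocyte marker means of 5.97 and 6.20 lay above the knockout range of 4.09 to 4.98. The part of adipocyte RNA in these differences was thus not tested. Among 5 measured sebocyte markers, Far2, a fatty acyl-CoA reductase of wax synthesis, fell by 1.81 with a limma adjusted p of 0.0200, and the others were Krt79 at -1.37, Mc5r at -0.03, Elovl3 at 0.04 and Scd3 at 0.14. The median of the 5 differences was -0.03, and the mean of their levels ran from 4.36 to 4.75 in knockout and from 4.47 to 5.39 in wildtype. Sebocytes also make fatty acids, and their part in the differences above was not tested.

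**Figure D4:**
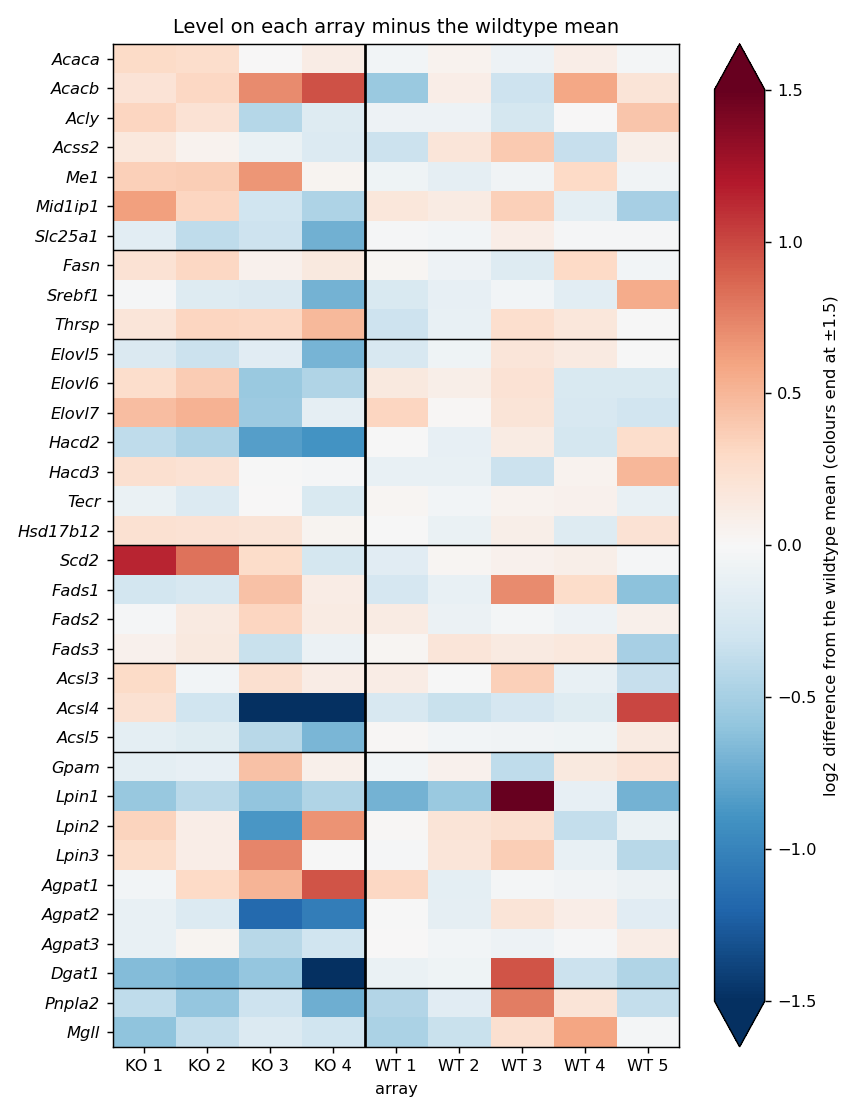
Level of each gene on each array minus the wildtype mean of that gene, on the log2 scale, with rows grouped by role. Knockout arrays 3 and 4 differ from knockout arrays 1 and 2 in Hacd2, Acsl4, Agpat2, Elovl6 and Elovl7, and wildtype array 3 stands out in Lpin1, Dgat1 and Pnpla2.

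The SD was higher in knockout than in wildtype for 20 of 34 genes, or 58.8%, beside 60.6% of all genes. For Scd2 the SD was 0.62 in knockout (n = 4) and 0.11 in wildtype (n = 5).

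Probe sets of a gene often did not point the same way. More than 1 probe set was present for 27 genes, and the signs of the brightest and the second brightest matched in 16 and differed in 11. The genes whose probe sets all had the same sign numbered 12, among them Hacd2, Scd2, Elovl5, Acaca, Me1 and Tecr. In a fit of all 34945 probe sets that name 1 gene, 0 of the 84 probe sets of these genes passed in limma, beside 1.10% of all probe sets, and 19 had an unadjusted p under 0.05 (22.6%), beside 16.5% of all.

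**Figure D5:**
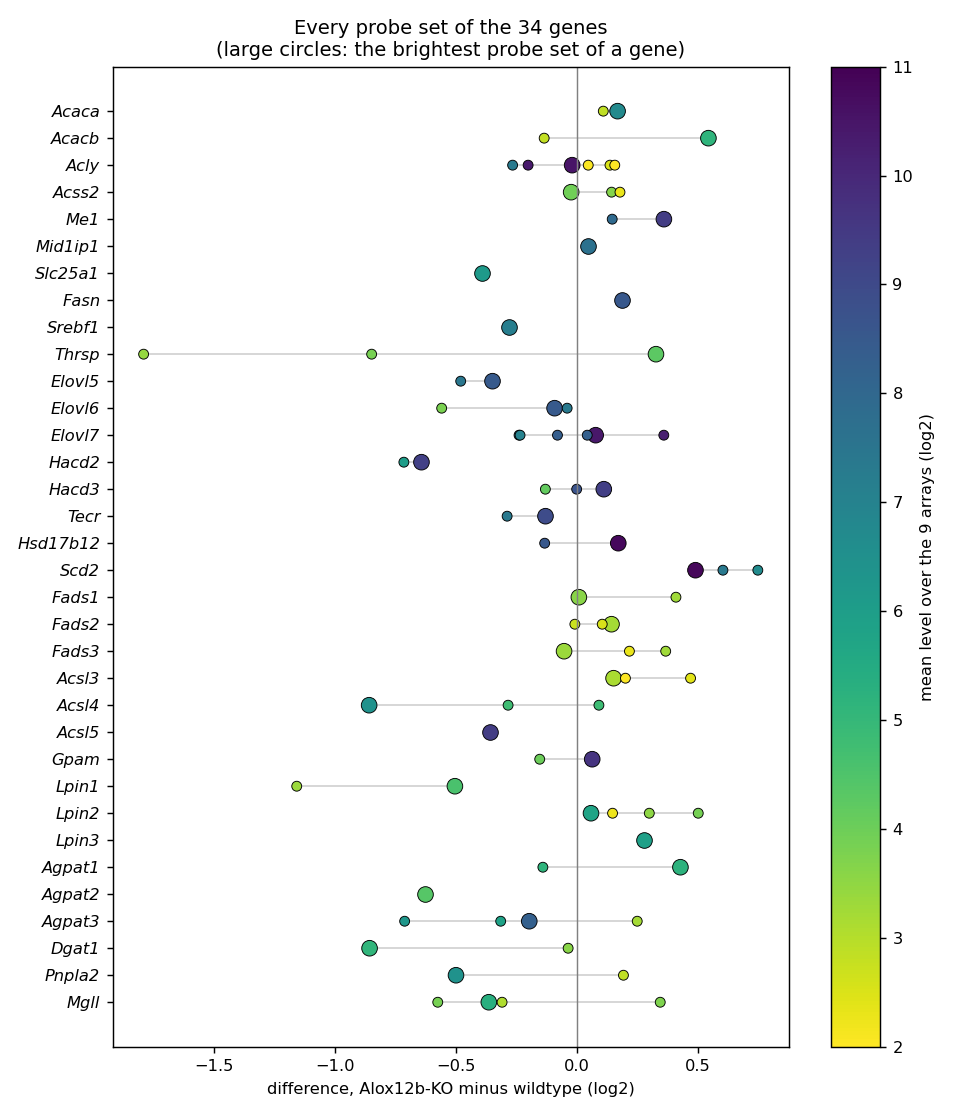
Difference between Alox12b-KO and wildtype on the log2 scale for each of the 84 probe sets, 1 row per gene, coloured by mean level, with a large circle for the brightest probe set. Hacd2 and Scd2 keep to a single side of 0. Thrsp runs from -1.79 to 0.33.

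Other genes of the pathway, in 6 lists with 63 measured genes, gave 0 that passed in limma, beside the 1.24% of all genes. There were 14 with an unadjusted p under 0.05 (22.2%, beside 17.8% of all genes), 5 higher (all genes 7.08%) and 9 lower (all genes 10.7%). Groups did not overlap for 2 that were higher (all genes 3.14%) and 5 that were lower (all genes 5.14%). Of all genes with a mean level of 5 or more, 24.9% had an unadjusted p under 0.05 and 13.4% did not overlap. Besides the gene with the largest difference in each list, the genes named here were chosen after their values were seen. Of 12 genes listed for SREBP, LXR and ChREBP control, both factors and their regulators, 10 had negative differences, beside 8464 of all 18193 genes. The median difference of the list was -0.13, and that over all genes with a mean level of 5 or more was -0.12. Mbtps1 and Mbtps2, the proteases that release active SREBP, differed by -0.69 and -0.78, with limma adjusted p values of 0.140 and 0.224. Mbtps2 is X-linked, and sex overlaps with genotype here. Mbtps2 read 6.51, 6.27, 5.81 and 5.16 in knockout and 6.46, 6.46, 6.74, 6.37 and 7.56 in wildtype, and Scap, the SREBP escort protein, differed by -0.37 with no overlap between the groups. Insig1, a gene that SREBP induces, read 7.27, 7.94, 5.45 and 6.34 in knockout and 5.69 to 6.97 in wildtype. The groups of Insig1 overlapped, with an SD of 1.09 in knockout (n = 4) and 0.49 in wildtype (n = 5).

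Of 9 other desaturase, elongase and dehydratase genes, the largest difference was in Scd1, the desaturase of sebaceous glands and fat. It read 7.86, 7.70, 8.07 and 6.80 in knockout and 7.81, 8.43, 9.16, 9.72 and 8.64 in wildtype, a difference of -1.14 (limma adjusted p = 0.162). Its direction was thus the opposite of that of Scd2, 0.49, although neither passed. Wildtype arrays 3 and 4 were highest for Scd1, as they were for the adipocyte markers, and wildtype array 1 lay within the knockout range. The part of adipocyte RNA in Scd1 was not tested. Elovl4 and Elovl1, the elongases of the very long chains of epidermal ceramides, differed by -0.03 and 0.25. The groups of Elovl1 did not overlap but nearly met, with a lowest knockout value of 12.771 and a highest wildtype value of 12.768. Its limma adjusted p was 0.299. Of 8 other glycerolipid acyltransferases the largest difference was in Mogat1, 0.45, with no overlap between the groups and a limma adjusted p of 0.107, at levels from 2.16 to 2.99. Dgat2, the other triglyceride synthase gene, read 10.59 against 10.60, a difference of -0.01.

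Of 16 genes of lipid droplets and lipolysis, Cidec, which also is an adipocyte marker, had the largest difference, -0.99, and without wildtype array 3 its groups lay close, at 2.42 to 3.13 and 2.89 to 3.77. Plin2, the droplet coat protein of most cells, read 5.65, 5.92, 5.85 and 6.40 in knockout and 7.10, 7.02, 7.42, 6.99 and 6.07 in wildtype, a difference of -0.96 (limma adjusted p = 0.0955), and wildtype array 5 lay within the knockout range. Without wildtype array 5 Plin2 fell by 1.17 and passed, with a limma adjusted p of 0.0104, and it did not pass with any other single array left out. Abhd5, the co-activator of Pnpla2, and Pnpla1, the acylceramide transacylase, differed by -0.11 and 0.31. Of 10 other acyl-CoA synthetases and transporters Acsl6 had the largest difference, -0.81, with no overlap between the groups and a limma adjusted p of 0.147. Its mean level was 4.34, under 5, where detection was not assessed. Slc27a4, the epidermal fatty acid transporter, differed by 0.28.

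Of 8 genes that supply carbon and NADPH, 7 had negative differences, beside 8464 of all 18193 genes. The median over all genes with a mean level of 5 or more was -0.12. Mpc1, a subunit of the mitochondrial pyruvate carrier, had the largest difference, -0.92, with knockout values of 4.85, 4.38, 3.46 and 5.24 and wildtype values of 4.96 to 5.99. Idh1, the cytosolic isocitrate dehydrogenase that makes NADPH, had a limma adjusted p of 0.0509, the smallest in these lists. It read 6.80, 6.19, 6.41 and 6.43 in knockout and 7.08, 6.95, 7.17, 7.07 and 7.33 in wildtype, with no overlap, and passed when genes with a mean level under 5 were left out. Aacs, which activates acetoacetate for lipid synthesis, differed by -0.73, also with no overlap.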

How the data were processed

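Biotin-labelled cRNA from epidermal total RNA was hybridised to Affymetrix mouse arrays according to the labels' protocols. The authors deposited log2 values of 45037 probe sets for 9 arrays. Per the submitters' processing notes affy was used. How background, normalization and probe summary were handled is not stated by any source at hand. The values, 1.43 to 14.46, show a log2 scale.

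Of the probe sets, 34945 named 1 gene, 932 named several and 9160 were not in the gene table. Symbols were updated through gene numbers, and the brightest probe set stood for its gene. All 18193 genes were fitted by lmFit and eBayes of limma 3.58.1 (R 4.3.3) with genotype as the only term, with Benjamini-Hochberg adjustment over all of them and a threshold of 0.05. No gene was filtered. No 2 arrays of a group shared more than 124 identical values. Members and lists were chosen with earlier results of these data known. Values on every array are given for members whose groups did not overlap and for the largest difference in each role, and for some others chosen after their values were seen. The pathway lists are named by their largest difference, and further genes were named after their values were seen. The code was tested on simulated data.

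Alternatives were other probe set summaries, a filter, quantile normalization, median centring, trend and robust settings, array weights, an Xist covariate, the replicate number as a block, other thresholds and each array left out. Leaving out wildtype arrays 3 and 4 together and fitting all probe sets were added after the data were seen.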

Additional observations from a re-analysis of the deposited data

Results flagged for a closer look

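Single arrays stood far from the rest of their group by Dixon's test at the 95% level in 10 of 68 groups checked, where chance marks about 1 in 20. The share over all genes was not computed, and genes on the same arrays are not independent. The count can therefore not be read as particular to these genes. On wildtype array 3, Lpin1 read 6.88 against 4.09 to 4.67 on the other wildtype arrays, Dgat1 6.44 against 5.05 to 5.43, and Slc25a1 6.42 against 6.28 to 6.30. On wildtype array 5, Acsl4 read 7.83 against 6.49 to 6.65, Srebf1 7.87 against 7.09 to 7.27, and Fads3 2.87 against 3.39 to 3.55. Me1 read 9.56 on wildtype array 4 against 9.12 to 9.20, and Agpat1 5.35 on wildtype array 1 against 4.89 to 5.00. On knockout array 4, Dgat1 read 3.98 against 4.81 to 4.92 on the other knockout arrays, and Hsd17b12 10.77 against 10.93 to 10.96.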

How the results depend on the processing

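Of the 34 genes, 19 kept their sign in every setting tried, and 24 with each array left out in turn. The number that passed was 1 with quantile normalization (Hacd2), 3 with array weights (Hacd2, Me1 and Scd2), 1 at an adjusted p under 0.1 and 10 at an unadjusted p under 0.05, and 0 with each array left out. Over all genes, 226 passed, and 1644 did with array weights, 9 with the Xist covariate, 49 without wildtype arrays 3 and 4, 571 at an adjusted p under 0.1 and 62 to 281 with each array left out. The split was 93 higher and 133 lower, and 147 and 143 with quantile normalization. Of the 34, those whose groups did not overlap numbered 8 without wildtype arrays 3 and 4, where the share of all genes was 14.2%, and 4 to 7 with each array left out, where it was 9.74% to 14.3% (7 without knockout array 1 and without wildtype array 4, at 14.3% and 10.6% of all genes). Of the 63 other pathway genes, 1 passed with genes under a mean level of 5 left out (Idh1), 7 with array weights, and 0 to 1 with each array left out. Pairing by replicate number was not evident, as the deviations of same-numbered arrays correlated at -0.21, -0.10, -0.21 and 0.18. Knockout arrays 1, 2, 3 and 4 correlated best with wildtype arrays 5, 5, 4 and 4. With so few arrays this cannot exclude that the numbers mark pairs. With the number as a replicate block 119 genes passed, 0 of the 34 and 1 of the other pathway genes (Plin2).

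Signs turned as follows. With the mean of probe sets they were 0.098 for Acss2, -0.013 for Elovl7, 0.18 for Fads3, -0.77 for Thrsp, -0.046 for Gpam and -0.0074 for Hacd3. Without probe sets marked _a_at, _s_at or _x_at they were -0.0017 for Hacd3, 0.19 for Pnpla2 and 0.34 for Mgll. Quantile normalization gave 0.0043 for Acss2 and 0.00082 for Elovl6. Median centring gave -0.034 for Fads1. Array weights gave 0.25 for Acly, 0.073 for Acss2, 0.19 for Elovl6, -0.20 for Fads1 and -0.073 for Gpam. The Xist covariate gave -0.062 for Fasn, 0.023 for Acly, 0.27 for Acss2, 0.056 for Elovl6, -0.29 for Fads1 and -0.032 for Gpam. The replicate block gave 0.083 for Acly, -0.15 for Fads1 and -0.080 for Mid1ip1. Without wildtype arrays 3 and 4 the values were 0.045 for Fads3, -0.013 for Gpam and 0.15 for Lpin1. With each array left out in turn the differences of these genes ran as follows: Acly from -0.13 to 0.11, Acss2 from -0.11 to 0.074, Elovl6 from -0.25 to 0.063, Elovl7 from -0.073 to 0.28 and Fads1 from -0.15 to 0.18. The others were Fads3 from -0.18 to 0.041, Gpam from -0.065 to 0.13, Lpin1 from -0.68 to 0.017, Lpin2 from -0.15 to 0.37 and Mid1ip1 from -0.14 to 0.21. The causes were not tested. Sex and genotype overlap almost wholly, and 8 of the 34 genes lie at mean levels under 5, where detection was not assessed and changes could be missed.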
